A study of Mus musculus with 18 samples.

Results

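The pigment cells of mouse back skin were followed through 10 genes: the melanosome genes Tyr, Tyrp1, Dct, Pmel, Mlana and Oca2, the transcription factor genes Mitf and Sox10, the receptor gene Kit and its ligand gene Kitl. They were chosen by symbol from the 21011 genes of the count table, by their known place in pigment cells. Earlier results of these data were known when they were chosen. All 10 had a row, and 9 passed the filter on low counts. Oca2 did not. The question asked of them was whether their RNA differed between mice that had lost a Notch component from the epidermis and the controls of the same batch. They were also set against Krt71, a keratin gene of the inner root sheath, the layer that forms around a growing hair.

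The 18 mice fell into 6 groups, each mouse giving 1 library of poly(A) RNA from cells scraped off the epidermal side of the dorsal skin. KR mice (n = 4) had lost Rbpj, the DNA-binding partner of Notch receptors, through K14-CreERT. LR mice (n = 3) had lost Rbpj through Lrig1-CreERT2, and KN1 mice (n = 4) had lost the receptor gene Notch1 through a driver that the labels spell K14-CreERT1. K14 is a promoter of basal keratinocytes, and Lrig1 is a gene of upper follicle stem cells. Tamoxifen, which switches these recombinases on, was given at 8 weeks of age, and skin was taken 10 weeks afterwards. KR had 2 controls (numbers 4 and 6, batch 2), LR had 3 (numbers 2, 3 and 5, batch 1) and KN1 had 2 (numbers 1 and 7, batch 3). The alleles the controls carried, whether they also received tamoxifen and the coat colour of the mice were not stated in the sources used here. All skin was labelled as telogen, when hair follicles rest.

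Melanocytes make melanin inside melanosomes and hand it to neighbouring keratinocytes. In mouse back skin they sit mainly in the hair follicles. Their stem cells rest in the bulge and hair germ during telogen, and when a new hair grows, their progeny in the hair bulb switch on the pigment enzymes and colour the shaft. Mitf, with Sox10 upstream of it, drives the melanosome genes. Kit on the melanocyte receives Kitl, also called stem cell factor, from keratinocytes and dermal cells.

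Library totals ran from 8076316 to 21216169 counts. For KR control 4 and KN1 control 1, the deepest, 2 sequencing occasions of 1 mouse were merged. Of the targeted genes, Notch1 fell in KN1 from 172 to 251 CPM in the 2 controls to 81.9 to 156 CPM (counts scaled to library size) in the 4 mutants (log2 fold change -0.91 ± 0.19 SE, adjusted p = 0.0251), a call lost without KN1 control 1 (-0.62, adjusted p = 0.163), KN1 control 7 (-1.17, 0.119) or KN1 4 (-0.89, 0.0758). Rbpj was lower in each KR and LR mouse than in each of its controls (19.5% and 9.29% of all genes), but neither difference passed. KR gave -0.47 ± 0.17 on the log2 scale (adjusted p = 0.135), and LR gave -0.66 ± 0.17 (adjusted p = 0.0659). In KN1, where Rbpj was not targeted, each mutant was also lower, at 30.9 to 36.8 against 42.6 to 44.2 CPM (14.3% of all genes). That difference did not pass either (-0.34 ± 0.18, adjusted p = 0.31). Counts over a whole gene do not resolve a deleted exon. Adjusted p-values of genes come from the quasi-likelihood F test of edgeR, adjusted by Benjamini-Hochberg over all genes tested. A gene passed below 0.05. Counts of genes at an unadjusted p under 0.05 are description only, as the share of all genes at that level was not counted. Keratinocyte RNA was abundant in every library, with Krt5, a basal keratin gene, at 11180 to 18640 CPM. The 7 melanocyte marker genes with a row, which include Pmel, Dct, Tyr, Tyrp1 and Mlana, summed to between 27.9 and 117 CPM.

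Although all skin was labelled telogen, Krt71 differed widely. It ranged from 0.217 to 200 CPM and split the mice into a low set of 10 (0.217 to 6.06 CPM) and a high set of 8 (36.9 to 200 CPM). The high set held KR 3, 4 and 5, KR control 6, LR 2, LR control 2, and KN1 2 and 4. No KN1 control was in it. Krt71 itself did not pass in any mutant (log2 fold change 0.36 ± 2.38 in KR, 0.67 ± 2.25 in LR and 7.58 ± 4.17 in KN1, adjusted p = 0.946, 0.92 and 0.358). In KN1 every mutant mouse nevertheless lay above both controls, at 5.54 to 200 against 0.217 and 0.459 CPM, so the KN1 comparison set mice with some Krt71 against mice with almost none.

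Mitf, a factor of the basic helix-loop-helix class, binds a short core that reads TCATGTG in the promoters of several melanosome genes. It is shown for the 3 genes in which it was found, Tyrp1, Tyr and Dct, which form 1 enzyme family and of which Dct and Tyrp1 followed Krt71 in the values below. RefSeq start sites on GRCm38.p6 were available for 7 of the 10 genes (Dct, Tyr, Tyrp1, Mitf, Kit, Kitl and Oca2). TCATGTG was searched on both strands in the 250 bases before each start. It lay before 3 of these 7 genes, in 3 of their 10 windows, against 1068 of all 32851 windows (3.25%). Since the core is known from promoters of melanosome genes, the share over all windows is given for scale and not as a test. The related core TCACGTG was in none of the 10 windows and in 3.13% of all. In the sequences that follow, written 5′ to 3′ along the gene's own strand, capitals mark the core or, as CACATGA, its reverse complement.
Tyrp1, chr4:80834155-80834183, plus strand: tggggagggagTCATGTGctgcctagtag
Tyr, chr7:87493513-87493574, minus strand: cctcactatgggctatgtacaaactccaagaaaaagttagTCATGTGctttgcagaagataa
Dct, chr14:118052351-118052496, minus strand: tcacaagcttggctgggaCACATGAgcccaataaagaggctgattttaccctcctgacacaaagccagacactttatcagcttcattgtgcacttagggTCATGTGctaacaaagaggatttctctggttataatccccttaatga
Counted back from the start site, the core lay at -47 to -41 in Tyrp1 and at -22 to -16 in Tyr. Dct had it at -151 to -145 and, reversed, at -232 to -226. The Tyrp1 match is upstream of the RefSeq start but inside the gene as GENCODE M21 places it, which has an exon in that window. These are matches of letters in the reference, and binding of Mitf was not measured.

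Per kilobase of exon, the scale on which genes can be compared, mean levels over the 18 mice ran in the order Pmel (10.6 CPM per kb), Dct (5.12), Mitf (3.32), Tyrp1 (2.35), Kitl (1.43), Mlana (1.31), Sox10 (1.27), Kit (0.78), Tyr (0.176) and Oca2 (0.0575). The ranges over mice of every pair of neighbours in this order overlapped. The highest mouse exceeded the lowest by 46.3-fold for Mlana, 40.7-fold for Tyr, 10.9-fold for Tyrp1, 8.23-fold for Sox10 and 4.80-fold for Dct. The ratio was 4.68 for Kitl, 3.65 for Kit, 3.33 for Pmel and, lowest of the 9 genes tested, 2.03 for Mitf. Mlana and Tyr were counted at under 5 CPM in every mouse, and counting error is part of their spread.

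**Figure D1:**
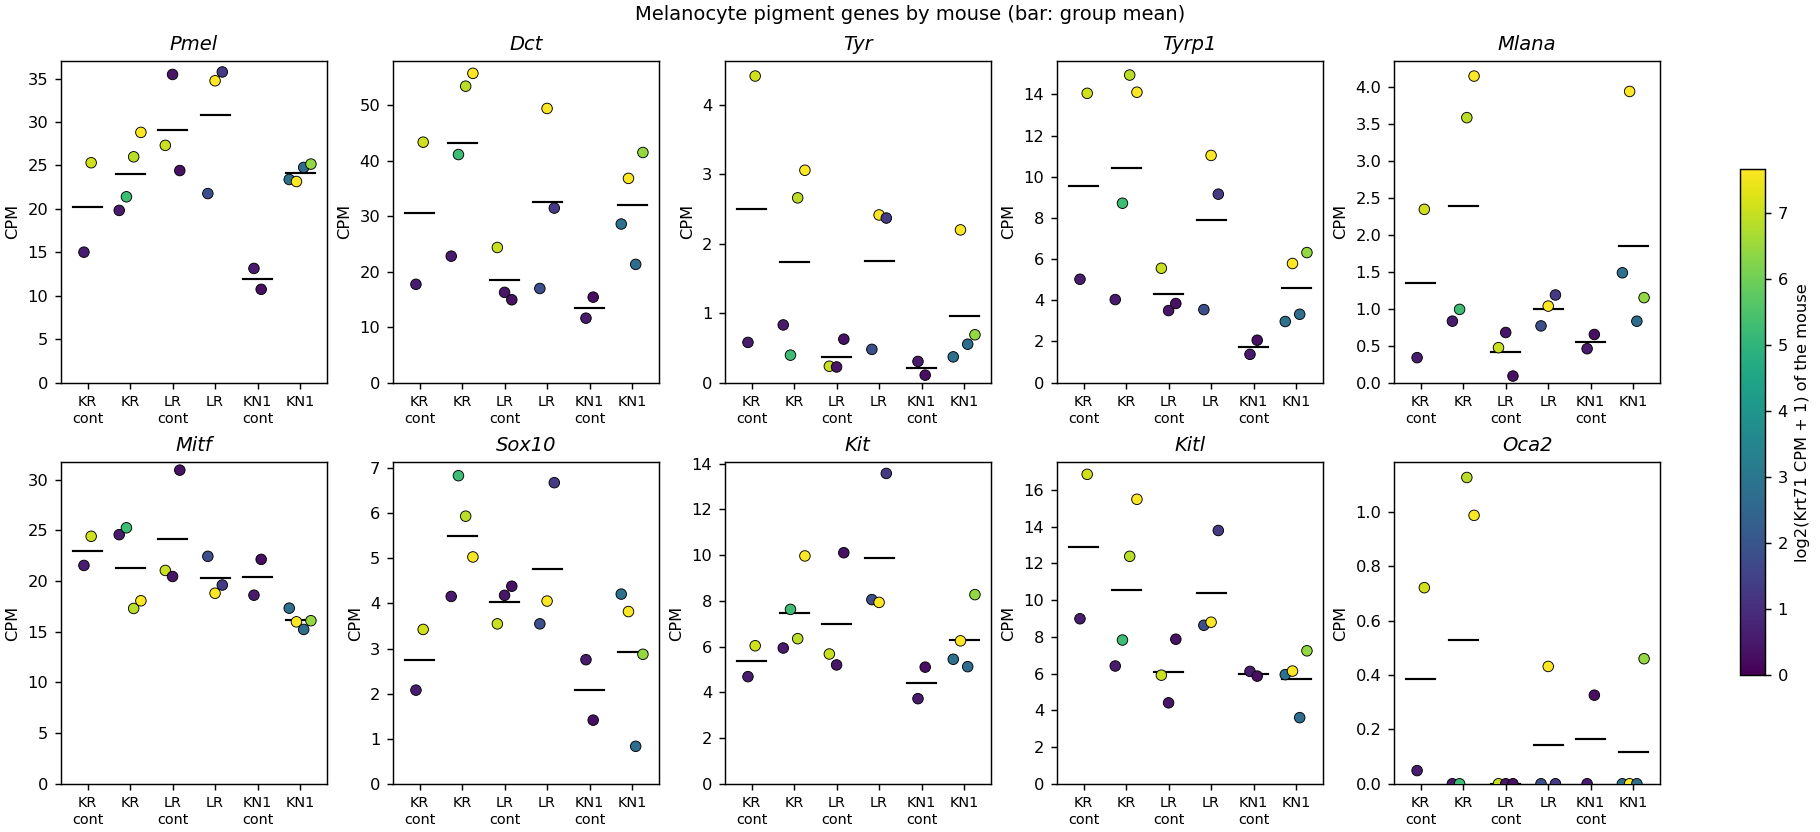
Level of each gene in each mouse (CPM) by group, with points coloured by the Krt71 level of the mouse on a log2 scale and a bar at the group mean. The KN1 mutants sit above both KN1 controls for Pmel, Dct, Tyr, Tyrp1, Mlana and Kit, while Mitf varies little between groups.

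In KN1 skin, where Notch1 was deleted, 1 of the 9 genes tested passed. This was Pmel, which was 2.01-fold higher. Of all 16517 genes tested, 1.97% passed in KN1, 0.86% as higher and 1.11% as lower. The log2 fold change was positive for 7 of 9 genes (51.8% of all genes), with a median of 1.01 against 0.02 over all genes. Every mutant mouse lay above both controls for 6 genes, Pmel, Dct, Tyr, Tyrp1, Mlana and Kit (13.8% of all genes), and below both for Mitf (14.3%). At an unadjusted p under 0.05 stood 3 genes, Pmel, Dct and Tyrp1. DESeq2 also called 1 gene, Pmel.

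In KR skin, where the K14 driver deleted Rbpj, edgeR called 0 of the 9 genes, against 1.6% of all genes (0.696% as higher, 0.902% as lower). At an unadjusted p under 0.05 stood 1 gene, Sox10, and DESeq2 called 0. The median log2 fold change was 0.26, against 0.04 over all genes, and 6 of 9 values were positive (53.4% of all genes). Sox10 was the 1 gene whose mutants all lay above both controls (19% of all genes), and 0 genes lay below both (19.5%).

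In LR skin, where the Lrig1 driver deleted Rbpj, edgeR again called 0 of the 9, against 1.12% of all genes (0.872% as higher, 0.248% as lower). Tyr and Kitl, 2 genes, had an unadjusted p under 0.05, and DESeq2 called 0. The median was 0.77, against -0.00 over all genes, and 8 of 9 values were positive (49.5% of all genes). Mlana and Kitl were higher in each mutant than in each control (2 of 9, against 10.3% of all genes), and 0 were lower (9.29%).

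**Figure D2:**
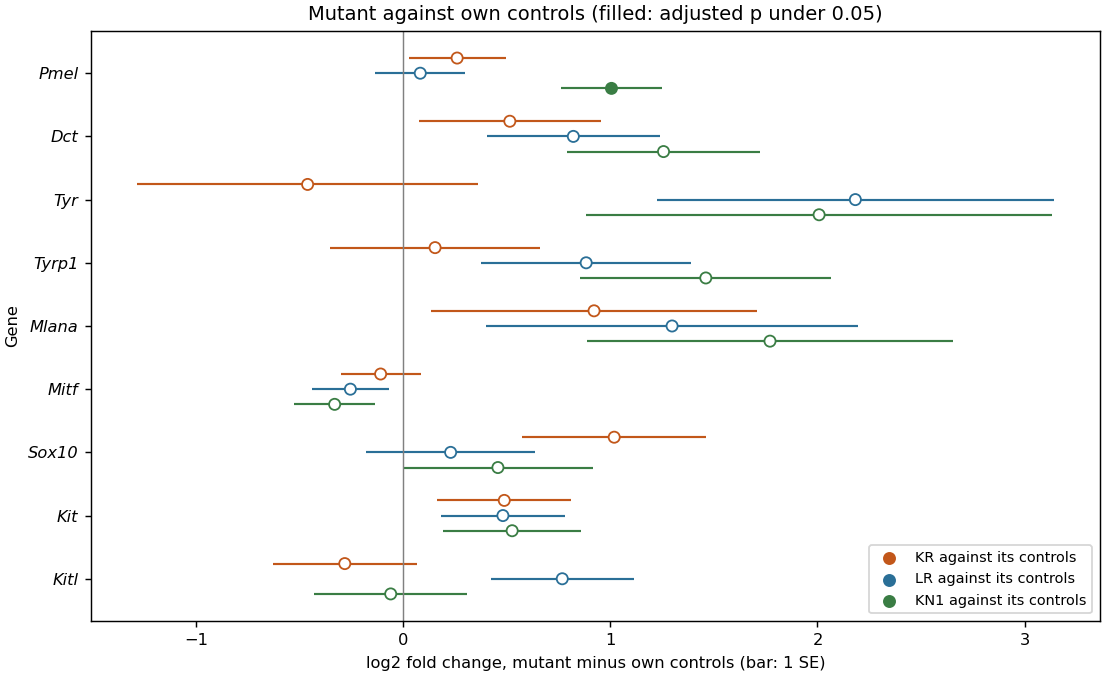
Log2 fold change of each gene in each mutant against the controls of its batch, with bars of 1 SE and filled points for an adjusted p under 0.05. Pmel in KN1, at 1.01 ± 0.25, is the 1 filled point.

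Pmel encodes the amyloid-forming protein that builds the fibrils on which melanin is laid down. It lies at chr10:128704195-128720238 on the plus strand (GRCm38, protein coding). In the KN1 cohort it stood at 13.1 and 10.7 CPM in controls 1 and 7 and at 23.4, 23.2, 24.8 and 25.2 CPM in mutants 1 to 4. The mutants were close together and all above the controls, at 24.1 ± 0.998 CPM (SD, n = 4) against 11.9 ± 1.70 (n = 2). This rise was the change that passed, with a log2 fold change of 1.01 ± 0.25 (edgeR adjusted p = 0.0423).

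The KN1 controls had less Pmel than any other mouse. Pmel measured 15.02 and 25.3 CPM in KR controls 4 and 6 and 27.3, 35.5 and 24.4 CPM in LR controls 2, 3 and 5. Those 5 control mice thus spanned the level of the KN1 mutants. With all 7 controls pooled, the KN1 log2 fold change of Pmel was 0.16 (adjusted p = 0.693), and Mitf was called in its place at -0.49 (adjusted p = 0.0445), but that fit leaves batch in the comparison. Pmel was 19.8, 21.4, 25.99 and 28.8 CPM in KR 1, 3, 4 and 5 (log2 fold change 0.26 ± 0.23, adjusted p = 0.52) and 21.8, 34.7 and 35.8 CPM in LR 1, 2 and 3 (0.08 ± 0.22, adjusted p = 0.894). In both cohorts mutants and controls overlapped.

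The Pmel call in KN1 held in the KN1 cohort fitted alone (log2 fold change 1.03 ± 0.17, edgeR adjusted p = 0.0424) but rested on few mice. It was lost without KN1 control 1 (log2 fold change 1.16, adjusted p = 0.0795) and without KN1 control 7 (0.87, adjusted p = 0.335). It was lost without KN1 mutant 1, 2, 3 or 4 (adjusted p = 0.0568, 0.0756, 0.0687 and 0.0983) and, narrowly, without KR 3 (0.051) or KR 4 (0.0508). Control 1 is a merged library and control 7 carries a second name in the labels, and together they are the whole KN1 control group. With log2 Krt71 as a covariate the Pmel value was 0.81 (edgeR adjusted p = 0.15), and 95 genes in all passed in KN1. With the 8 mice high in Krt71 left out the Pmel value was 0.99 ± 0.30 (edgeR adjusted p = 0.595). The Pmel call was thus lost in both fits. In the second 0 of all genes passed in KN1, so that loss is not particular to Pmel.

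Pmel shares exon sequence on the opposite strand with Dgka (105 bases, 4.58% of its exons) and Cdk2 (34 bases, 1.48%), and the sources used here do not state whether counting used strand. Dgka differed by 0.21 ± 0.13 on the log2 scale in KN1 (adjusted p = 0.397) and Cdk2 by 0.16 ± 0.18 (adjusted p = 0.686). Dgka stood at 91.1 to 100 CPM in the KN1 controls and at 105 to 116 CPM in the KN1 mutants. Cdk2 stood at 24.5 to 33.5 CPM and 23.3 to 38.3 CPM. Whether reads of these 2 genes entered the Pmel counts was not tested.

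Dct encodes dopachrome tautomerase, a melanin enzyme that is also made by resting melanocyte stem cells (chr14:118012790-118052244, minus strand). KN1 controls 1 and 7 had 11.6 and 15.4 CPM, and KN1 mutants 1 to 4 had 28.6, 36.8, 21.3 and 41.5 CPM. The groups did not overlap, but the difference did not pass (log2 fold change 1.26 ± 0.47, adjusted p = 0.169). The 2 mutants with the most Dct, KN1 4 and KN1 2, were those in the high Krt71 set.

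LR controls 2, 3 and 5 had 24.4, 16.3 and 14.9 CPM of Dct, and LR 1, 2 and 3 had 17.0, 49.4 and 31.5 CPM (0.82 ± 0.42, adjusted p = 0.365). In the KR cohort the 2 controls alone spanned most of the range, with 17.7 CPM in control 4 and 43.3 CPM in control 6, against 22.8, 41.1, 53.4 and 55.7 CPM in KR 1, 3, 4 and 5 (0.51 ± 0.44, adjusted p = 0.5). Control 6, which has the Krt71 of growing hair, lay among the mutants. The KR values of the enzymes depended on which control was kept. Without control 6 the log2 fold changes were 1.26 for Dct, 1.04 for Tyrp1 and 1.55 for Tyr, the last with its sign turned. Without control 4 they were -0.0027, -0.42 and -1.33, with the signs of Dct and Tyrp1 turned.

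Tyrp1 encodes an enzyme of the tyrosinase family that acts in eumelanin synthesis (chr4:80834123-80851719, plus strand). It was 1.38 and 2.06 CPM in KN1 controls 1 and 7 and 2.97, 5.79, 3.32 and 6.32 CPM in KN1 1 to 4, again without overlap and again short of the threshold (1.46 ± 0.61, adjusted p = 0.208). In LR it was 5.56, 3.50 and 3.85 CPM in controls 2, 3 and 5 and 3.55, 11.04 and 9.16 CPM in mutants 1, 2 and 3 (0.88 ± 0.51, adjusted p = 0.418). In KR it was 5.02 and 14.1 CPM in controls 4 and 6 and 4.04, 8.72, 14.9 and 14.1 CPM in mutants 1, 3, 4 and 5, which overlapped throughout (0.15 ± 0.51, adjusted p = 0.883).

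Tyr encodes tyrosinase, the rate-limiting enzyme of melanin synthesis (chr7:87424771-87493512, minus strand). It was scarce, at 0.109 to 4.41 CPM. Its highest value was in KR control 6 (4.41 CPM), and the KR mutants had 0.831, 0.396, 2.66 and 3.06 CPM (-0.46 ± 0.82, adjusted p = 0.77). LR 2 and LR 3 had 2.41 and 2.37 CPM, above the controls at 0.236, 0.226 and 0.626, while LR 1 with 0.479 CPM was not (2.18 ± 0.96, adjusted p = 0.283). The KN1 mutants had 0.371, 2.20, 0.554 and 0.689 CPM against 0.306 and 0.109 CPM (2.01 ± 1.13, adjusted p = 0.355).

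Mlana, a melanosome membrane protein gene also known as MART-1 (chr19:29697824-29708634, plus strand), had positive values in all 3 mutants with no call (0.92 ± 0.79 in KR, 1.30 ± 0.90 in LR and 1.77 ± 0.88 in KN1, adjusted p = 0.498, 0.517 and 0.294). It reached 4.14 CPM in KR 5 and 3.94 CPM in KN1 2, and was 0.0894 CPM in LR control 5.

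Oca2 encodes a melanosome membrane transport protein that is needed for melanin synthesis (chr7:56239760-56536518, plus strand). It gave 42 counts over all 18 mice and was listed at 0 in 11 of them. Of these counts 38 fell in the 8 mice high in Krt71, 3 of which had none, and 4 fell in the 10 low mice, 8 of which had none. The highest levels were 1.13 CPM in KR 4, 0.987 in KR 5 and 0.721 in KR control 6. The gene was too low for the filter. Fitted without the filter, its slope on Krt71 did not pass (0.59 ± 0.16 log2 per doubling, adjusted p = 0.251).

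Mitf (chr6:97807052-98021349, plus strand) did not pass in any mutant. It was 18.6 and 22.1 CPM in KN1 controls 1 and 7 and 17.3, 16.0, 15.2 and 16.1 CPM in KN1 1 to 4, so every mutant was below both controls, by a margin that did not pass (-0.33 ± 0.19, adjusted p = 0.377). The values in KR (-0.11 ± 0.19, adjusted p = 0.768) and LR (-0.25 ± 0.18, adjusted p = 0.538) were also negative and did not pass, with overlapping groups. Its range was 15.2 CPM in KN1 3 to 30.9 CPM in LR control 5. The counts sum all transcripts of Mitf, which has many starts, and do not give the melanocyte transcript alone.

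Sox10 (chr15:79154908-79165240, minus strand) was 2.08 and 3.42 CPM in KR controls 4 and 6 and 4.16, 6.83, 5.94 and 5.03 CPM in KR 1, 3, 4 and 5. All 4 mutants were above both controls, but the difference did not pass (1.02 ± 0.45, adjusted p = 0.187). Mutants and controls overlapped in LR, at 0.23 ± 0.41 (adjusted p = 0.835). They also did in KN1, at 0.46 ± 0.46 (adjusted p = 0.628), where KN1 3 had the lowest value of all, 0.830 CPM. Schwann cells also express Sox10. Of their markers, Cdh19 was between 0 and 0.592 CPM over the 18 mice and Gfra3 between 0 and 0.614 CPM. Erbb3, Mbp, Pmp22 and Ngfr, 4 markers that other skin cells also express, summed to 246 to 373 CPM in KR against 334 to 369 in its controls and to 353 to 394 in LR against 402 to 453. In KN1 every mutant was higher, at 307 to 341 CPM against 263 to 274. edgeR and DESeq2 called 0 of the 4 in each mutant, with 1, 0 and 0 at an unadjusted edgeR p under 0.05 in KR, LR and KN1. Their part in the Sox10 values was not tested.

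Kit, the receptor gene (chr5:75574916-75656722, plus strand), ranged from 3.72 CPM in KN1 control 1 to 13.6 CPM in LR 3. Its log2 fold changes were alike and none passed, with 0.49 ± 0.32 in KR, 0.48 ± 0.30 in LR and 0.53 ± 0.33 in KN1 (adjusted p = 0.374, 0.459 and 0.412). In KN1 the mutants, at 5.44, 6.25, 5.12 and 8.27 CPM, were all above the controls at 3.72 and 5.10 CPM, KN1 3 by a slight margin. Mast cells share Kit and Mitf. Of their 12 listed markers 3 had a row, with mean levels of 5.46 CPM for Mrgprb2, 0.549 for Hdc and 0.124 for Gata2. They summed to 4.40 to 10.1 CPM in KN1 against 6.01 to 7.92 CPM in its controls. In KR the sum was 1.48 to 3.99 against 4.86 to 6.47, and in LR 3.45 to 8.05 against 6.71 to 12.5. Of the 2 tested, Mrgprb2 was -1.60 on the log2 scale in KR (edgeR adjusted p = 0.0622), where DESeq2 called it lower. Hdc was 1.18 there (edgeR adjusted p = 0.417). The part of mast cells in the Kit and Mitf values was not tested.

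Kitl, the ligand gene (chr10:100015630-100100416, plus strand), is expressed by cells around the melanocyte. In LR it was 5.91, 4.41 and 7.87 CPM in controls 2, 3 and 5 and 8.63, 8.80 and 13.8 CPM in mutants 1, 2 and 3, without overlap (0.77 ± 0.35, adjusted p = 0.295). The highest value was in KR control 6, at 16.8 CPM, followed by KR 5 at 15.5 CPM. KR control 4 had 8.98 CPM and KR 1, 3 and 4 had 6.41, 7.82 and 12.4 CPM (-0.28 ± 0.35, adjusted p = 0.652). In KN1 it was level (-0.06 ± 0.37, adjusted p = 0.95), with 3.60 to 7.24 CPM in mutants and 5.86 and 6.12 CPM in controls.

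Whether the mutants differed from each other was tested as the difference of their fold changes. edgeR called 0 of 27 such differences (9 genes, 3 pairs of mutants), with 3 at an unadjusted p under 0.05, against 0.00605% of all genes for KR less LR, 0% for KR less KN1 and 0.00605% for LR less KN1. The smallest p was for Pmel, LR less KN1, at -0.92 ± 0.32 (adjusted p = 0.5). Differences between the mutants in these genes were not detectable with these numbers of mice, which does not show that the mutants were alike.

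With the 6 group means held in the fit, 2 of 9 genes rose with Krt71, the enzyme genes Dct and Tyrp1, while 0.509% of the 16516 genes tested passed, each with a positive slope. Dct gained 0.14 ± 0.02 on the log2 scale per doubling of Krt71 (adjusted p = 0.00196), which is 2.32-fold over the whole range of Krt71, and it ranked 58th by p. Tyrp1 gained 0.16 ± 0.03 (adjusted p = 0.0327), or 2.64-fold. Mlana at 0.21 ± 0.06 (adjusted p = 0.456) and Tyr at 0.20 ± 0.08 (adjusted p = 0.835) had steeper estimates that did not pass.

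Slopes of the other 5 genes were small and did not pass (edgeR adjusted p = 1.00 for each). They were 0.06 ± 0.03 for Kitl, 0.04 ± 0.02 for Pmel, 0.02 ± 0.04 for Sox10, 0.01 ± 0.03 for Kit and -0.02 ± 0.02 for Mitf. In all, 8 of 9 slopes were positive, against 46.2% of all genes, and the median was 0.06 against -0.00.

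**Figure D3:**
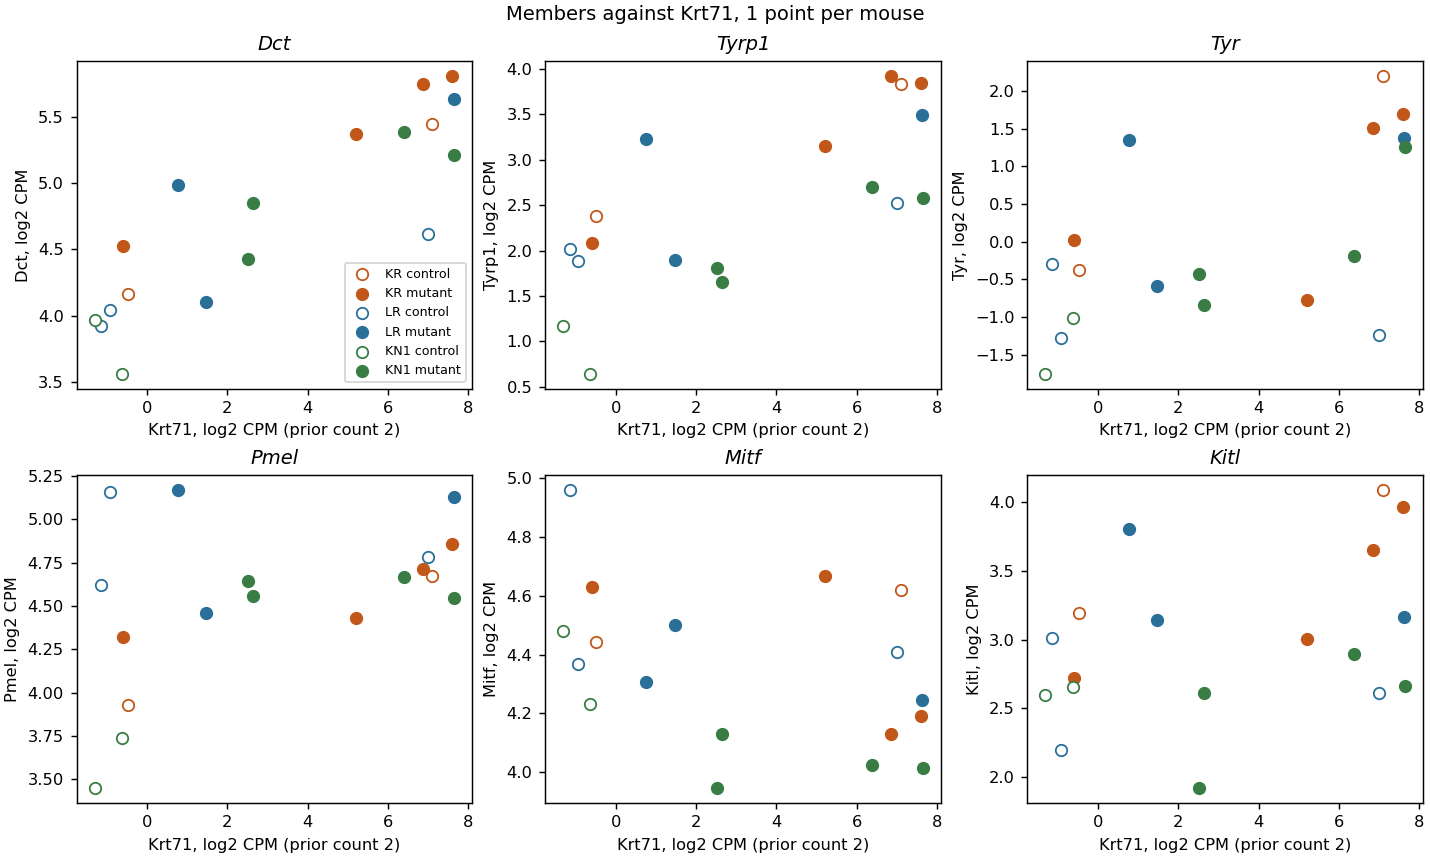
Level of Dct, Tyrp1, Tyr, Pmel, Mitf and Kitl in each mouse (log2 CPM) against Krt71 (log2 CPM, prior count 2), with 1 point per mouse and open points for controls. Dct and Tyrp1 climb from left to right across the gap between the low and high Krt71 sets, and Mitf does not.

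Median levels in the low and high Krt71 sets were 17.3 and 42.4 CPM for Dct, 3.52 and 9.88 for Tyrp1, 0.517 and 2.31 for Tyr and 0.722 and 1.75 for Mlana. They were 22.6 and 25.7 CPM for Pmel, 20.99 and 18.4 for Mitf, 3.85 and 3.94 for Sox10, 5.32 and 6.99 for Kit and 6.26 and 8.31 for Kitl. The ranges of both sets overlapped for Dct and Tyrp1, since LR 3 had 31.5 CPM of Dct with 1.51 CPM of Krt71 and LR control 2 had 24.4 CPM of Dct with 128 CPM of Krt71.

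Because the mice fell into these 2 sets, no correlation of a single pigment gene with Krt71 over all 18 is given. Within the 10 low mice Dct had a Pearson r of 0.61 with log2 Krt71 (permutation p = 0.0657, adjusted p = 0.641 over all genes) and a Spearman rho of 0.72 (permutation p = 0.0234, adjusted 0.649). The r was 0.46 without the 2 mice farthest from the median. Within the 8 high mice the r for Dct was 0.13 (exact permutation p = 0.716) and rho was 0.12 (exact permutation p = 0.793). Tyrp1 had r = 0.16 in both sets (permutation p = 0.653 in the low and exact permutation p = 0.763 in the high). None of the 18 relations, 9 genes in 2 sets, passed after adjustment.

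Within single batches the slope of Dct was positive each time but did not pass: 0.11 ± 0.03 in the LR cohort (adjusted p = 0.803), 0.16 ± 0.03 in the KR cohort (adjusted p = 0.0567) and 0.13 ± 0.06 in the KN1 cohort (adjusted p = 1). For Tyrp1 it was 0.09 ± 0.04, 0.22 ± 0.05 and 0.19 ± 0.09 (adjusted p = 1, 0.0801 and 1). These fits, added after the data were seen, called 0 of the 9 genes in each cohort, with 0.242%, 0.309% and 0.2% of all genes called. The Dct call held in 18 of 18 fits that left out 1 mouse (adjusted p = 0.000483 to 0.0201). The Tyrp1 call held in 6 of 18 (0.00182 to 0.259). It held without KN1 control 1 or 7, LR control 2 or 5, LR 1 or LR 3. It was lost without any other mouse, most of all without KR 1 (slope 0.14, adjusted p = 0.259) or without KR control 4 or 6 (0.15 each, adjusted p = 0.177 each).

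**Figure D4:**
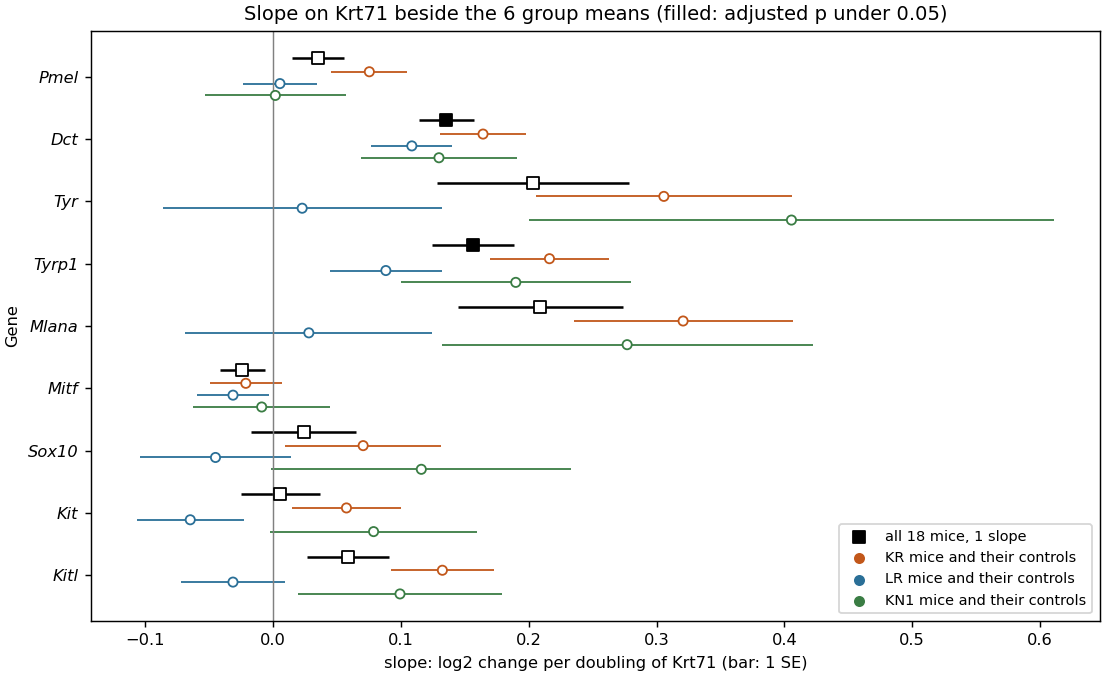
Slope of each gene on log2 Krt71 with bars of 1 SE, over all 18 mice (squares) and within each cohort (circles), filled where the adjusted p was under 0.05. Dct and Tyrp1 are filled over all mice, and both stay positive within the 3 cohorts.

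Hair genes gave the scale for these slopes. All 8 inner root sheath genes tested rose with Krt71, and so did 14 of 20 hair shaft and matrix genes (0.509% of all genes). Within single cohorts 7 to 8 and 11 to 12 of them passed. The median slopes of both lists, 0.91 and 0.76 per doubling, were several times those of Dct and Tyrp1. In the KN1 controls the 9 inner root sheath genes summed to 10.4 to 11.8 CPM, against 27.3 to 559 CPM in the KN1 mutants. They overlapped between groups in KR (11.8 to 367 in controls, 9.14 to 567 in mutants) and in LR (9.12 to 385 and 15.1 to 749). With log2 Krt71 as a covariate the KN1 values became 0.44 for Dct (edgeR adjusted p = 0.452) and 0.50 for Tyrp1 (adjusted p = 0.614). Without the 8 high mice they were 0.88 (edgeR adjusted p = 0.643) and 0.89 (adjusted p = 0.717). Both stayed uncalled, and the fit without the 8 mice called 0 of all genes in KN1. In bulk RNA a change in the number of melanocytes and a change in RNA per melanocyte cannot be told apart.

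Other genes of the melanocyte gave few calls. Of 22 listed, 19 were tested. None was called in KR or KN1 by edgeR or DESeq2, and 4 and 7 had an unadjusted edgeR p under 0.05. Rab32, a small GTPase that carries cargo to melanosomes and is also made in other cells, rose in LR by 0.72 on the log2 scale (adjusted p = 0.0232), and DESeq2 called it too. The call was lost without LR control 3 or 5 (adjusted p = 0.0645 and 0.0804) and without LR 1 or LR 3 (0.0864 and 0.0915). The median log2 fold change of the list was -0.08 in KR, 0.17 in LR and 0.51 in KN1, with 6, 13 and 13 of 19 positive. Over all genes the medians were 0.04, -0.00 and 0.02, with 53.4%, 49.5% and 51.8% positive. Of all genes edgeR called 1.6% in KR, 1.12% in LR and 1.97% in KN1. Its 2 most abundant genes, Cdh3 and Mreg, which keratinocytes also express, had 0.51 (adjusted p = 0.108) and -0.27 (adjusted p = 0.294) in KN1. On Krt71 edgeR called 0 of the 19, with 7 at an unadjusted p under 0.05 and 16 positive slopes. Of all genes 0.509% were called and 46.2% had a positive slope. Trpm1, a channel of melanocytes, had the value 0.22 (adjusted p = 0.163).

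Of 14 listed genes for signals that reach melanocytes, 10 were tested. Wnt10a, a Wnt ligand of the epidermis and follicle, rose in LR by 0.95 on the log2 scale (adjusted p = 0.0178), a call lost without LR control 3 or 5 (adjusted p = 0.0744 and 0.0775) and without LR 1 or LR 3 (0.0566 and 0.101). Wnt10a was 0.79 in KR (adjusted p = 0.0565), where DESeq2 called it, and 0.56 in KN1 (adjusted p = 0.155). edgeR called none of the 10 in KR or KN1, with 4 and 5 at an unadjusted p under 0.05, and DESeq2 called none in KN1. Of all genes edgeR called 1.6% in KR, 1.12% in LR and 1.97% in KN1. The medians were 0.44, 0.23 and 0.48, against 0.04, -0.00 and 0.02 over all genes. DESeq2 added Tgfb1, whose product is a cytokine that keeps melanocyte stem cells quiet, in LR (0.58, edgeR adjusted p = 0.0747).

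Across the 18 mice the melanosome genes tested followed each other more than they followed Mitf, Pmel less closely than the rest. Pearson r of log2 CPM, given as a description, was 0.89 between Dct and Tyrp1 and 0.82 between Tyr and Tyrp1. For Pmel it was 0.61 with Tyrp1, 0.53 with Dct, 0.49 with Tyr and 0.31 with Mlana. With the mean log2 level of Pmel, Dct, Tyr, Tyrp1 and Mlana, r was 0.69 for Kitl and -0.30 for Mitf. The mice differ in depth, batch and Krt71 level, and these points are not independent of them.

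The 10 genes outside the list whose levels were most like that mean were Trpm1 (r = 0.896), Vcan (0.896), Fras1 (0.895), Cyp27b1 (0.888), Adamts19 (0.884), RP24-176P19.3 (0.856), St3gal5 (0.854), Tnc (0.854), RP23-136G1.3 (0.849) and Shh (0.845). Of the first 100 genes, 6 were among the 19 other melanocyte genes (Slc45a2, Slc24a5, Trpm1, Mc1r, Gpnmb and Syt4), 5 among the 8 inner root sheath genes and 10 among the 20 hair shaft and matrix genes. Of 2 mast cell, 5 Schwann cell and 10 bulge and hair germ markers tested, 0 were in the first 100. Of 10 dermal markers Alx4 was the 1 in it. The first 100 are a small part of the 16517 genes tested, so a count of 0 in such short lists carries no contrast.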

How the data were processed

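RNA-seq of 18 mice was used as the deposited table of raw counts per gene, with 1 column per mouse matched by name. Per the submitters' processing notes, STAR, HTSeq, DESeq2 and the mm10 build were used. No version is given in the sources used here, nor whether counting used strand. Per the labels' protocols, shaved skin was held in trypsin and the epidermis scraped from the dermis, and RNA was enriched with oligo(dT). Every row had a total of at least 18 counts.

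Counts were tested with edgeR 4.0.16 (R 4.3.3, limma 3.58.1): TMM factors, filterByExpr, 6 group means over all 18 mice, robust quasi-likelihood F tests, two-sided, Benjamini-Hochberg adjustment over 16517 genes at 0.05. Each mutant was compared with the controls of its batch. The common biological coefficient of variation was 0.225. The slope on log2 Krt71 CPM (prior count 2) was fitted beside the group means. CPM uses TMM-scaled libraries, and SE comes from the F statistic. Within the sets of 10 and 8 mice, permutation tests used 100000 draws or full enumeration. The steps were tested on simulated data.

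Other settings tried were RLE factors, DESeq2 1.42.0, a mean of 1 CPM, no filter, each cohort alone, pooled controls, a Krt71 covariate, slopes beside batch means, with no group or batch term or on the other inner root sheath genes, a replicate block in LR, omission of the controls with a second name in the labels (KR control 6, LR control 5, KN1 control 7), omission of each mouse and, added after the data were seen, slopes per cohort and omission of 8 mice high in Krt71. The genes and lists were chosen with earlier results of these data known. All 10 genes and Krt71 are named. From other lists, genes that passed are named (at most 4), or else the 2 most abundant, together with the 10 genes most alike over mice. Trpm1, Tgfb1, Krt5, Cdh19, Gfra3, Erbb3, Mbp, Pmp22 and Ngfr are named also where that rule did not ask for it. Some results on marker genes are not reported here. Positions are from GENCODE M21 on GRCm38 (15418 symbols matched), promoters from RefSeq on GRCm38.p6.

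Each sample is a separate mouse, so p-values measure the spread between mice. The smallest chi-square per degree of freedom between libraries of 1 group was 6.41, so none was treated as a repeat of another. Precision for rare genes is set by depth: library totals were 8076316 to 21216169 counts, and at the lowest 1 CPM is about 8 reads.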

Additional observations from a re-analysis of the deposited data

Results flagged for a closer look

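Oca2 in KN1 mouse 4 stood apart from its group. It was at 0.460 CPM, from 4 counts, while KN1 1, 2 and 3 were listed at 0. The gap to the others exceeded the critical value of Dixon's test for 4 mice, but with the others at 0 any read at all would exceed it. In all, 22 sets of 4 mice were examined in this way, and chance alone marks about 1 in 20. At a depth of 8103155 to 9213875 counts in KN1 a gene at this level is expected to give only a few reads, and the difference within the group was not tested further.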

How the results depend on the processing

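Counts of the 9 genes called were 0 in KR, in LR and among differences between mutants under every alternative run. In KN1 the count of 1 became 0 with the Krt71 covariate, without the second-named controls and without the 8 high mice, and ranged from 0 to 1 when single mice were left out. The 2 slopes became 0 when fitted within the LR, KR or KN1 batch and ranged from 1 to 2 with single mice left out. With no group or batch term they became 3, with Mlana at 0.26 (adjusted p = 0.0217). Pmel in KN1 was called in 15 of 27 alternatives (adjusted p 0.00494 to 0.693) and was 0.87 without the second-named control (adjusted p = 0.2). The Dct slope was called in 23 of 26 and the Tyrp1 slope in 11 of 26. No called gene changed direction. Uncalled values that changed sign were, in KR, Tyrp1 (-0.053 with the Krt71 covariate, -0.35 without 8 mice), Tyr (0.90 with controls pooled, 1.55 without the second-named control, 0.48 without 8 mice), Kitl (0.39 pooled, 0.21 without the second-named) and Mitf (0.16 without 8 mice). In LR, Pmel was -0.035 without the second-named control and -0.056 without 8 mice. In KN1 with controls pooled Tyrp1 was -0.13 and Sox10 -0.067. Slopes within LR were -0.045 for Sox10, -0.065 for Kit and -0.031 for Kitl. With single mice left out, KR values spanned -0.078 to 0.65 (Pmel), -0.0027 to 1.26 (Dct), -0.42 to 1.04 (Tyrp1), -1.33 to 1.55 (Tyr) and -0.68 to 0.21 (Kitl), LR values -0.038 to 0.28 (Pmel) and -0.088 to 0.40 (Sox10), Kitl in KN1 -0.19 to 0.10, and the Kit slope -0.011 to 0.027. Their cause was not tested. Over all genes, 264 were called in KR (0 to 1353 over alternatives), 185 in LR (40 to 1058), 325 in KN1 (0 to 1855), 84 by the slope (34 to 115) and 2 by differences (2 to 21). With the replicate block in LR 0 of 9 genes and 163 genes in all were called, and the shared numbers did not pair the mice (correlations of deviations 0.07 and -0.08). Tyr, Mlana and Oca2 are limited by depth.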
